A study of Bombyx mori with 8 samples.

Results

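The regions described here are the places in the silkworm (*Bombyx mori*) brain genome where both deposited brain peak lists of G-quadruplex CUT&Tag hold a peak. They were chosen by the overlap of the peaks themselves: the peaks of brain replicates 1 and 2 were merged where they shared at least 1 bp, and a merged region was kept when it held a peak of each replicate. Of 36452 merged brain regions, 4070 (11.2%) were kept, 2688 had a peak of replicate 1 alone and 29694 had a peak of replicate 2 alone. Since overlap chose the regions, their number is a description and carries no test.

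Both brain libraries are labelled as wild-type animals of strain P50 at the stage coded L5D3, profiled with BG4, an antibody fragment that binds G-quadruplexes. Larvae were fed mulberry leaves, and nuclei were taken from homogenised tissue, with no sort of cell types named, and peak positions alone cannot check the labelled tissue. The fat body lists used as context carry the same genotype, strain, stage code and antibody in their labels, 2 libraries per tissue, 4 in all. The labels list 8 samples. The other 4 were not analysed here: the IgG control, the brain at stage code P0 and the libraries of BmN, an ovarian cell line. No label says whether the brain replicates came from separate animals, so differences between them may be technical.

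A G-quadruplex (G4) is a DNA fold in which runs of guanine pair with one another in stacked planes instead of with the opposite strand. Such folds are known in other animals from promoters, telomeres and other guanine-rich DNA, and they form more readily where chromatin is open. In CUT&Tag, the antibody brings a Tn5 transposase to the chromatin, and the enzyme inserts sequencing adaptors next to the bound place. A peak marks recovered fragments above the local level. It does not show by itself that a fold is there, and no IgG list was used here to mark places that give peaks with any antibody.

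The brain libraries differ in ways that bear on every result below. Replicate 1 holds 6759 peaks and replicate 2 holds 33925. The text inside all replicate 1 peak names contains BG4. The replicate 2 names contain G4 with no B, and they alone add the text q20.rm-dup, whose meaning is not stated. Replicate 2 may thus have been filtered in another way. In addition, all fat body names contain 1H6, another G4 antibody, where the labels say BG4. The groups were kept as labelled, and any part that these differences have in the results was not tested. No peak list states its read number. The summit height of each peak, in fragments, was recovered from the authors' fold and p, and 100% of the heights in each list were within 0.02 of a whole number. It had a median of 49 in replicate 1 and 66 in replicate 2. No label names the genome build, and the lists give it only through their sequence names. Positions are given on the numbered sequences of the lists, counted from 1, with no gene or feature annotation and no base sequence.

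The brain regions were short and covered little of the genome. Their widths ran from 295 to 2539 bp, with a median of 606.5 bp and quartiles of 470 and 804 bp. Only 515 regions (12.7%) were wider than 1000 bp and 15 were wider than 2000 bp. Together they covered 2766 kb, and those on the long sequences took up 0.62% of 444 Mb. Peaks of replicate 1 took up 0.85% of the same length and peaks of replicate 2 took up 3.93%. Almost every region was a simple pair: 3910 regions (96.1%) held 1 peak of each replicate. A further 157 joined 1 replicate 1 peak with 2 replicate 2 peaks, 2 joined 1 with 3, and a single region joined 2 replicate 1 peaks with 1 replicate 2 peak.

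Replicate 1 covered most of the width of the regions. Its peaks inside the regions had a median width of 521 bp (quartiles 393 and 708.5 bp), against 375 bp (quartiles 290 and 508.5 bp) for replicate 2. In 3080 of 4232 overlapping pairs (72.8%) the replicate 1 peak was the wider one. The narrowest peak measured 295 bp in the whole replicate 1 list and 212 bp in the replicate 2 list, and 10 and 19 of the peaks inside the regions sat at these limits. The replicate 2 peak lay wholly inside the replicate 1 peak in 1530 pairs (36.2%), and the reverse held in 593 (14.0%). At the median, the replicate 2 peak started 22 bp later and ended 21 bp earlier than its partner. Bases covered by both replicates made up 52.8% of all region bases, those of replicate 1 only 34.0% and those of replicate 2 only 13.2%. Widths of the strongest peaks were weakly related between replicates across the 4070 regions, with a Spearman rho of 0.15.

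Summits of the replicates lay close together in most regions, but peaks had to overlap to be chosen, which limits the distance. The distance between the strongest summits had a median of 72 bp, quartiles of 15 and 152 bp and a highest value of 2024 bp. It was at most 100 bp in 2549 regions (62.6%) and at most 250 bp in 3494 (85.8%). In 356 regions (8.75%) the summits fell on the same base, and in 958 (23.5%) they were at most 10 bp apart. Neither side was favoured: the replicate 2 summit lay at the higher coordinate in 1863 regions and at the lower in 1851. Regions with summits at most 10 bp apart had a median width of 541 bp, and those with summits over 100 bp apart had one of 710 bp. Median folds in these classes were 5.78 and 5.22 in replicate 1 and 6.27 and 5.33 in replicate 2. Wider regions leave more room for distant summits, and the median distance went from 29 bp in the narrowest decile of regions to 186 bp in the widest.

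**Figure D1:**
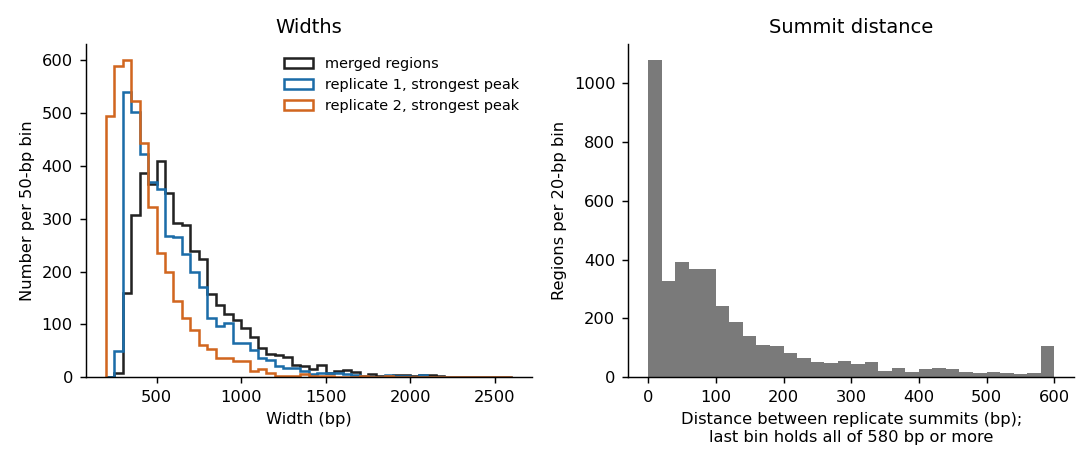
Left: widths in bp (x) against the number per 50-bp bin (y) for the 4070 merged brain regions and for the strongest peak of each replicate inside them. Right: distance between the replicates' strongest summits in bp (x) against the number of regions per 20-bp bin (y). Replicate 2 peaks sit at lower widths than replicate 1 peaks, and the first summit bin is the tallest.

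The edge of the rule can be seen from the values beside it. The regions with the fewest shared bases had 3 bp in common. One, on sequence 5 (15230512 to 15231151), had folds of 3.90 in replicate 1 and 4.71 in replicate 2. Another, on sequence 8 (6855377 to 6857016), had 7.03 and 14.3. The last of these 3, on sequence 11 (14520780 to 14521446), had 3.86 and 4.90. Just outside, a replicate 1 peak on sequence 15 at 759623 to 760069 lay 1 bp from a replicate 2 peak at 760071 to 760310, with folds of 3.43 and 3.93. On sequence 3 and again on sequence 15, pairs missed by 3 bp. Such near misses were few. Of the 2688 replicate 1 peaks without a partner, 77 (2.86%) lay closer than 250 bp to a replicate 2 peak and 354 (13.2%) closer than 1000 bp, and the median distance was 5.11 kb.

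Signal strength inside the regions was moderate in both replicates. The authors' deposited fold, which sets summit height against a local background, ran from 2.46 to 30.8 in replicate 1 with a median of 5.52. In replicate 2 it ran from 2.32 to 37.1 with a median of 5.91. Summit heights had medians of 56 and 83 fragments, with 5th and 95th percentiles of 23 and 156 fragments in replicate 1 and 31 and 220 in replicate 2. Height was greater in replicate 2 in 3026 regions (74.3%) and the local background was greater there in 3066 (75.3%), while fold was greater there in 2383 (58.6%). A fold of at least 8 in both replicates was found in 265 regions (6.51%), one of at least 10 in 43 and one of at least 12 in 10. On the authors' own scale of confidence, 3389 regions (83.3%) had a −log10 q of at least 10 in both replicates and 1932 (47.5%) one of at least 20.

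Replicates ranked the regions alike only in part. Across the 4070 regions the Spearman rho was 0.50 for fold, 0.52 for summit height and 0.62 for local background. These points share a genome and the same merged boundaries, so the correlations are descriptions. The folds lay within 2-fold of each other in 3914 regions (96.2%). Folds span a narrow range, which limits how far they can differ. Their 5th and 95th percentiles were 3.58 and 9.27 in replicate 1 and 3.51 and 10.8 in replicate 2. Of the 156 regions farther apart, 104 were higher in replicate 2 and 52 in replicate 1. The median log2 ratio of replicate 2 to replicate 1 was 0.09, with quartiles of -0.19 and 0.38. Each replicate's strongest decile holds 407 regions, and 134 regions (32.9% of either decile) were in both. The rho for fold was 0.60 in the narrowest decile of regions and 0.32 in the widest.

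**Figure D2:**
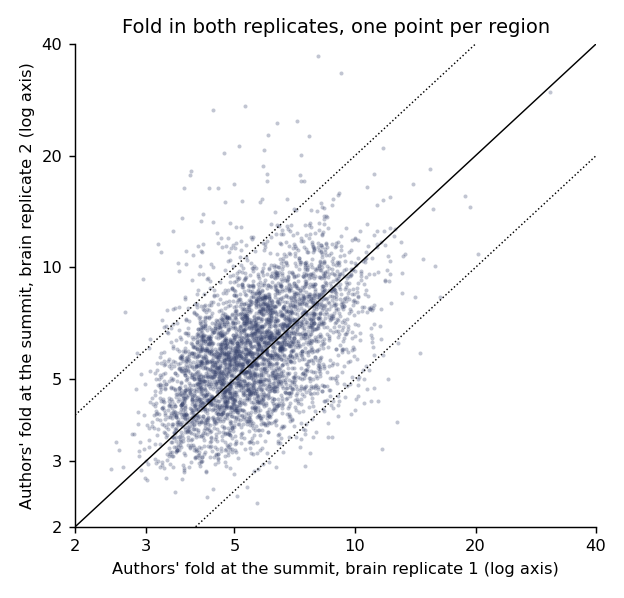
Authors' fold at the strongest summit in brain replicate 1 (x, log axis) and replicate 2 (y, log axis), 1 point per region, 4070 regions. The solid line marks equal folds and the dotted lines a 2-fold difference; 3914 regions lie within the dotted lines, and 104 of the 156 others are higher in replicate 2.

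The strongest regions in both replicates were ranked by the smaller of the folds. First came a region on the short sequence 216 at 15442 to 16152, 711 bp wide, with a fold of 30.8 in replicate 1 and 29.7 in replicate 2. Its summits were 4 bp apart, at 377 and 82 fragments, over backgrounds of 11.3 and 1.8 fragments. The same short sequence held the region ranked next, at 7622 to 8163, with folds of 18.8 and 15.6, heights of 40 and 42 fragments and summits 5 bp apart. Sequence 26 at 5231710 to 5232137 followed, with folds of 15.4 and 18.4 and heights of 53 and 59 fragments. Sequence 25 held 2 of the 10, at 6625192 to 6625787 (folds 19.4 and 14.6, heights 199 and 78) and at 5612121 to 5612474 (folds 14.0 and 16.7, heights 92 and 85). Sequence 11 also held 2, at 12940051 to 12940626 (folds 12.6 and 12.7, summits 1 bp apart) and at 13536933 to 13537397 (folds 12.2 and 15.4, heights 26 and 44). The remaining 3 were a region of the short sequence 121 (23615 to 23967) with folds of 15.7 and 14.4, a 992-bp region of sequence 1 (10136620 to 10137611) with 12.2 and 12.8, and a 605-bp region of sequence 22 (3456284 to 3456888) with 12.5 and 12.1.

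High folds arose at very different depths. On sequence 1 the heights were 308 and 168 fragments over backgrounds of 24.3 and 12.2, and on sequence 22 they were 146 and 188 over 10.7 and 14.6. The region of sequence 121 had 44 and 41 fragments over 1.87 and 1.92, and that of sequence 11 at 13536933 had 26 and 44 over 1.21 and 1.92. The region of sequence 216 at 7622 had 40 and 42 over 1.18 and 1.76. The lowest backgrounds of the brain lists were about 1.04 and 1.76 fragments, so these folds rest on few fragments and on backgrounds near the lowest. The replicate 2 background of 1.8 under the top-ranked region was also near the lowest. Both fat body lists also had a peak in 5 of the 10, fat body replicate 2 alone had one in the region of sequence 22, and neither had one in the other 4. The lowest backgrounds of the fat body lists were higher, about 5.81 and 3.32 fragments. Their lowest summits stood at 22 and 17 fragments, against 10 and 11 in the brain lists. Any part of this in the absent fat body peaks was not tested.

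Summits lay farther apart in most of the 5 widest regions than in the 10 strongest. Ranking by merged width favours offset peaks, so this is partly built in. The bases shared did not set these groups apart, with 187 to 789 bp in the widest and 233 to 589 bp in the strongest. The widest lay on sequence 24 at 1072746 to 1075284 and measured 2539 bp, with 1 replicate 1 peak and 2 replicate 2 peaks sharing 413 bp and the strongest summits 1281 bp apart. Its folds were 7.16 and 6.88. On sequence 5, the region at 8980980 to 8983353 was 2374 bp wide, with summits 2024 bp apart and folds of 5.78 and 4.92. On sequence 23 at 17693999 to 17696182 the replicates shared 187 bp, and the fold was 4.06 in replicate 1 and 11.4 in replicate 2. Sequence 12 at 597412 to 599563 was 2152 bp wide with summits 100 bp apart and folds of 9.58 and 6.69, and sequence 23 at 16921449 to 16923582 was 2134 bp wide with folds of 9.31 and 8.02. The regions with the most peaks, 1 of replicate 1 and 3 of replicate 2 each, were on sequence 2 at 5577441 to 5578901 (1461 bp) and on sequence 21 at 11237242 to 11239367 (2126 bp). Regions of 3 peaks are tied behind them, and the rule takes the first by position, all on sequence 1. One at 1950363 to 1951841 (1479 bp) had folds of 7.25 and 8.24 and summits 5 bp apart. Those at 2442291 to 2443184 and at 2598209 to 2599650 had folds of 5.28 and 7.20, and of 4.70 and 6.39.

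Peaks inside the regions had higher median folds and summit heights than the rest of their list in both replicates, while median widths went opposite ways. In replicate 1, the 4071 peaks inside (60.2% of the list) had a median fold of 5.52, height of 56 fragments and width of 521 bp. The 2688 outside had 4.68, 42 fragments and 462 bp. The share inside went from 43.3% in the lowest quintile of folds to 77.9% in the highest. In replicate 2, the 4231 peaks inside (12.5%) had a median fold of 5.84 and height of 83 fragments, against 5.05 and 64 for the 29694 outside, but their median width of 375 bp was below the 413 bp of the others. The upper quartile of replicate 2 folds went the other way, with 7.41 inside and 7.82 outside. The replicate 2 share inside was 5.20% in the lowest quintile of folds, 21.7% in the fourth quintile and 8.42% in the highest. By width, it was 20.1% in the middle quintile (345 to 497 bp) and 3.8% in the widest (797 bp and above), although wide peaks have more bases in which to meet a partner. When the replicate 2 list was shortened to its 6759 peaks of highest −log10 q, 877 regions were left, with 13.0% of replicate 1 peaks inside.

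Regions were spread along the genome with wide gaps. On the 28 long numbered sequences, which held 4054 of the 4070 regions, the gap between neighbours had a median of 64.4 kb, quartiles of 25.8 and 144 kb and a highest value of 1157 kb. The median gap was 132 kb for the regions with a −log10 q of at least 20 in both replicates and 277 kb with the replicate 2 list shortened to 6759 peaks, since fewer regions are left. In the full set, the nearest neighbour on either side lay at a median of 32.5 kb. For all peaks, median gaps were 37.0 kb in replicate 1 and 8.94 kb in replicate 2. Gaps of at most 10 kb numbered 447 (11.1%), and 1699 (42.2%) were at most 50 kb. The other 16 regions lay on 11 short sequences, although brain peaks were found on 24 short sequences in replicate 1 and 163 in replicate 2.

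Short gaps had a step near 5 kb. Between regions there were 24 gaps of 3 to 4 kb, 37 of 4 to 5 kb and 73 of 5 to 6 kb, followed by 54 of 6 to 7 kb and 41 of 14 to 15 kb. All 4 peak lists also had more gaps of 5 to 6 kb than of 3 to 4 kb. Replicate 1 had 61 gaps of 3 to 4 kb and 187 of 5 to 6 kb, and replicate 2 had 1543 and 2290. The fat body lists had 198 and 403 in replicate 1 and 56 and 155 in replicate 2. Fat body replicate 1 already had 343 gaps of 4 to 5 kb, so most of its rise came before 5 kb. In the other lists the larger rise was at 5 kb. The peak caller's background moved with the distance between neighbours. Where the nearest region lay within 5 kb, the median background of the 308 regions was 15.2 fragments in replicate 1 and 21.5 in replicate 2. Where it lay 5 to 10 kb away, the 533 regions had 9.88 and 14.3. Heights were greater in the closer class (medians of 79 and 110.5 fragments against 58 and 85) and folds smaller (4.82 and 5.13 against 5.70 and 5.92). The recovered backgrounds were tested for 2534 of 6759 replicate 1 and 6779 of 33925 replicate 2 peaks. Within 0.1 step, 100% of them fell on the steps of fragment counts over 10 kb, against 54.5% and 55.8% for 5 kb. Steps over 20 kb also held 100% in both lists, and 10 kb was the shortest window tested that did. A window of 10 kb reaches 5 kb to each side of a peak. Folds of close neighbours are thus set over a background that can include each other's fragments; the part of this in the step was not tested.

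**Figure D3:**
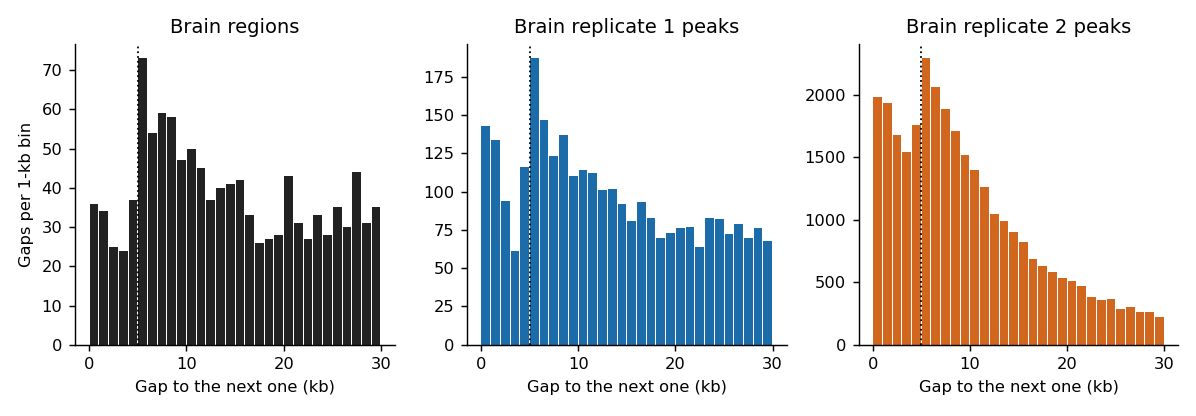
Gaps between neighbours on the long sequences in kb (x) against the number of gaps per 1-kb bin (y, separate scales), for brain regions, replicate 1 peaks and replicate 2 peaks, up to 30 kb. The dotted line stands at 5 kb; the bin just above it is the tallest in all 3 panels, with 73, 187 and 2290 gaps.

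Clusters of regions were small. Joining regions with gaps of at most 10 kb left 3213 single regions and put 841 (20.7%) into runs of 2 or more. There were 352 runs of 2, 34 of 3, 5 of 4 and 3 of 5. One run of 5 spanned 21.6 kb of sequence 10 (11563157 to 11584778), another spanned 30.3 kb of sequence 19 (10521025 to 10551338), and the last spanned 22.0 kb of sequence 25 (6851287 to 6873326). Median folds in them were 4.40, 4.58 and 3.33 in replicate 1 and 5.57, 5.34 and 4.45 in replicate 2. Fat body peaks of replicates 1 and 2 overlapped 3 and 3 of the 5 regions on sequence 10, 0 and 1 on sequence 19, and 3 and 3 on sequence 25. Among the runs of 4, those on sequence 1 at 2531226 to 2547045 and on sequence 8 at 6678484 to 6694110 come first by position. All 4 regions of the sequence 8 run had a peak in both fat body lists. Strength was hardly shared between neighbours: the Spearman rho of the smaller fold was 0.17 for 447 neighbour pairs within 10 kb and 0.04 for 2327 pairs over 50 kb apart.

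In 100-kb windows pooled over the long sequences, regions were somewhat more clumped than a count with equal variance and mean. Over 4429 complete windows the mean was 0.911 regions and the variance 1.11, a ratio of 1.22, where independent placement at a single rate would give 1. The same ratio was 1.38 for replicate 1 peaks and 1.26 for replicate 2 peaks. The pooled values include differences in density between sequences. Within single sequences the ratio for regions had a median of 1.18 and ran from 0.966 on sequence 8 to 1.79 on sequence 28, so it was not above 1 everywhere. No region lay in 1939 windows (43.8%), while 115 windows (2.60%) held 4 or more and together had 507 regions. Of the windows with no region, 1259 had no replicate 1 peak, 10 had no replicate 2 peak, and 674 (34.8%) held peaks of both replicates that did not meet. Peak counts of the replicates were almost unrelated across windows, with a Spearman rho of 0.03 over 4429 windows.

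The windows with the most regions lay side by side in one case. Sequence 10 had 8 regions at 11600001 to 11700000, from 8 replicate 1 and 16 replicate 2 peaks, and 7 in the window just before it. The window on sequence 21 at 9400001 to 9500000 also held 8 regions, with 9 and 18 peaks. Those on sequence 7 at 9200001 to 9300000 and on sequence 15 at 600001 to 700000 held 7 each. The average window had 1.51 replicate 1 and 7.54 replicate 2 peaks. Each region needs a peak of both lists, so high counts of both are fixed by the choice of these windows.

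Long stretches with no brain region held few replicate 1 peaks, while replicate 2 density in them lay on both sides of its median over the sequences. They were picked for holding no region, and 60.2% of replicate 1 peaks lie in regions, so a low replicate 1 count is partly built in by the choice. The longest was on sequence 26 at 7257070 to 8413679, 1157 kb, with 3 replicate 1 and 96 replicate 2 peaks, or 2.59 and 83.0 per Mb. On sequence 20, 1152 kb at 9597036 to 10749459 held 3 and 116 peaks. The stretch on sequence 27 at 652449 to 1611649 (959 kb) held 2 and 87, that on sequence 6 at 8200430 to 9143777 (943 kb) held 4 and 72, and that on sequence 21 at 933040 to 1843076 (910 kb) held 8 and 63. Replicate 1 had a median of 15.1 peaks per Mb over the 28 sequences and replicate 2 had 77.5. Fat body peaks were present in all 5 stretches, from 3 in each list on sequence 26 to 19 and 13 on sequence 21. On all long sequences, 444 Mb, the fat body lists held 8542 and 5888 peaks. Against that rate, both lists were sparse on sequences 26, 20 (7 and 4), 27 (6 and 3) and 6 (11 and 7). Only the stretch on sequence 21 was not sparse, and it lay slightly above that rate in both lists. Since 50.7% of regions have a fat body peak, the choice of stretches may also bear on these counts, which was not tested.

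Density differed by up to 1.88-fold between the 28 long sequences. The ratio was 2.64 for regions with a −log10 q of at least 20 in both replicates and 4.50 with the replicate 2 list shortened to 6759 peaks, both with fewer regions. The length of a sequence was taken as the end of its last peak in any of the 4 lists, which can fall short of the true end. The densest was sequence 10, with 215 regions in 17.6 Mb, or 12.2 per Mb (95% Poisson interval 10.7 to 14.0). Sequence 25 had 11.4, sequence 3 had 11.3, sequence 9 had 11.0 and sequence 4 had 10.6 per Mb. The sparsest was sequence 24, with 113 regions in 17.3 Mb, or 6.52 per Mb (5.37 to 7.84). Sequence 2 had 6.85, sequence 22 had 7.22, sequence 6 had 7.47 and sequence 28 had 7.48 per Mb. The intervals cover counting error only, and those of neighbours in this order overlap. They take regions as independent counts, whereas the variance over mean in 100-kb windows was 1.43 on sequence 10 and 1.25 on sequence 24. They are thus likely too narrow there. The extremes were named for their rank, so a space between their intervals is favoured by the choice, and no test was made.

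Region density followed replicate 1 and not replicate 2. Across the 28 sequences, its Spearman rho was 0.75 with replicate 1 peak density and 0.00 with replicate 2 peak density; the first is partly built in, since 60.2% of replicate 1 peaks are in regions. Replicate densities had a rho of -0.08 with each other. The share of replicate 1 peaks inside regions ranged from 45.0% on sequence 24 and 45.6% on sequence 2 to 76.0% on sequence 27. Sequence 24 thus had 14.5 replicate 1 and 79.5 replicate 2 peaks per Mb, close to the medians of 15.1 and 77.5, but fewer that met. Sequence 28 had the highest replicate 2 density, 97.2 per Mb, and the lowest replicate 1 density, 11.6 per Mb. Sequence 1 had the lowest replicate 2 density, 1030 peaks in 20.6 Mb, and 8.49 regions per Mb, near the median of 8.79. Width varied little between sequences, with medians of 563 to 648 bp, and so did fold, with medians of 5.07 to 6.17 in replicate 1 and 5.45 to 6.33 in replicate 2.

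**Figure D4:**
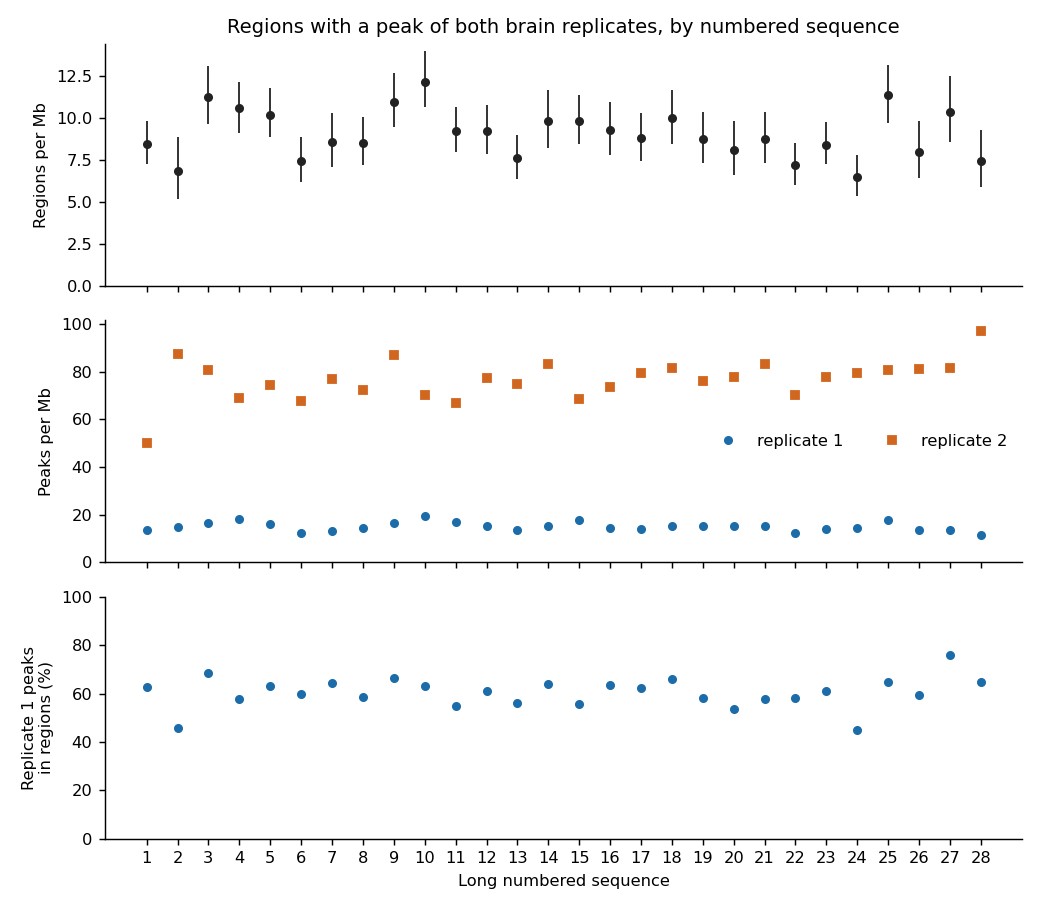
Values for each of the 28 long numbered sequences (x). Top: brain regions per Mb with 95% Poisson intervals, from 6.52 on sequence 24 to 12.2 on sequence 10; middle: peaks per Mb in each replicate; bottom: percent of replicate 1 peaks inside regions, lowest on sequence 24 and highest on sequence 27.

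Along the sequences, the regions leaned to the middle, as did 3 of the 4 peak lists. With each long sequence divided into 10 equal parts, the middle 4 parts held 1787 regions (44.1%) and the outer 4, 2 at each end, held 1434 (35.4%). Replicate 1 peaks gave 45.1% and 35.2%, fat body replicate 1 peaks 45.0% and 36.0%, and fat body replicate 2 peaks 44.2% and 37.2%. Brain replicate 2 peaks leaned the other way, with 37.2% in the middle and 41.9% in the outer parts. The share of replicate 1 peaks that lay in a region was alike in both, 59.0% of 3032 in the middle and 60.6% of 2365 in the outer parts.

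**Figure D5:**
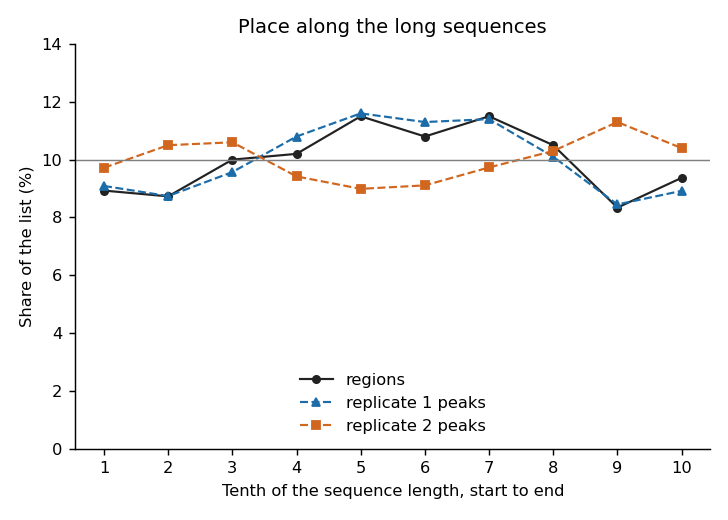
Share of each list in percent (y) by position along the sequence in 10 equal parts (x), summed over the 28 long sequences, for brain regions, replicate 1 peaks and replicate 2 peaks; the grey line marks 10%. Regions and replicate 1 peaks are above the line in the bins from 5 to 7, where replicate 2 peaks are below it.

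Fat body served as context for how far these places are shared between tissues. A peak of at least 1 fat body list overlapped 2062 of the 4070 brain regions (50.7%), against 13.2% of all merged brain regions. Peaks of both fat body lists overlapped 1523 (37.4%), against 7.85% of all merged brain regions. Fat body replicate 1 overlapped 42.9% and replicate 2 overlapped 45.1%. The fat body lists start at greater heights and backgrounds than the brain lists, and any part of this in the shares was not tested. Regions of brain replicate 1 alone had almost the same share, 1300 of 2688 (48.4%), and regions of brain replicate 2 alone had 1441 of 29694 (4.85%). The low value for all merged regions thus comes from the many replicate 2 regions. With 2 libraries per tissue no exact p under 0.333 can be reached, and none is given.

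Brain regions with a greater smaller fold and wider brain regions were more often overlapped by fat body. By deciles of the smaller fold, the share with a peak of at least 1 fat body list went from 40.5% (folds up to 3.607) to 64.6% (folds from 7.51). By deciles of width it went from 36.1% (up to 391 bp) to 68.8% (from 1060 bp), and a wider region has more bases to overlap. By summit height the replicates went opposite ways. Regions with a peak in both fat body lists had a median summit height of 73 fragments in brain replicate 1, against 45 for the 2008 regions with none; in brain replicate 2 the heights were 79 and 87. Median folds were 6.22 and 5.11 in replicate 1 and 6.01 and 5.86 in replicate 2. On the long sequences the overlapped share ran from 36.6% on sequence 1 to 63.7% on sequence 24, the sequence with the fewest brain regions per Mb. The antibody named inside the fat body lists differs from the label, so tissue and antibody cannot be told apart in these shares.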

How the data were processed

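CUT&Tag peak lists of 2 brain and 2 fat body libraries, 1 list per library, were used as the authors deposited them in narrowPeak layout. The peak caller was MACS2 2.1.0, and the tools also named are Trim Galore, Picard, deepTools 3.3.0 and Bowtie2, all per the submitters' processing notes. Order and settings are not given in the sources used here, and the genome build appears only through the sequence names of the lists. The deposited columns are a score (10 times −log10 q), a fold (ratio) over local background, −log10 p and −log10 q, and the summit offset; the peak names carry a q limit of 1e-05. Peaks were merged at 1 bp of overlap in Python 3.11.15 with pandas 2.3.3, numpy 2.4.6 and scipy 1.17.1. Each replicate's fold in a region is that of its strongest peak. Height and background were solved from fold = (height + 1)/(background + 1) and the Poisson upper tail. The merging and solving were tested on simulated data and returned the known answers. Regions were named by fixed ranks: 10 by smaller fold, 5 each by width, peak number, runs within 10 kb, 100-kb windows, empty stretches and high or low density, and 3 each beside the overlap limit. The members and these rules were chosen with earlier results of these data known. No test was run, since 2 libraries form the group. Alternatives changed the overlap rule, q limit, list length, sequences, merging distance, windows and replicates.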

Additional observations from a re-analysis of the deposited data

How the results depend on the processing

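Of the 84 recomputed values, 47 stayed within the spread used for each result. The number of regions was 1932 with a −log10 q of at least 20 in both lists and 877 with replicate 2 shortened to the length of replicate 1 by −log10 q. The replicate 1 share inside was 56.5% with at least 50% of the shorter peak shared, 52.4% with summits within 250 bp, 62.6% and 65.7% with −log10 q limits of 10 and 20, and 13.0% at equal length. In the same order the replicate 2 share was 11.7%, 10.9%, 11.7%, 10.3% and 13.1%, and the median summit distance 67, 58, 65, 58 and 49 bp. The limit of 20 and equal length gave median gaps of 132 and 277 kb, density ratios of 2.64 and 4.50, and a rho for fold of 0.47 and 0.31. The share overlapped by fat body was 55.0% and 62.4% at the limits of 10 and 20 and 48.8% at equal length. The variance over mean was 1.12 in 50-kb and 1.70 in 500-kb windows. With 1 replicate left out every peak counts as a region: the number ranged from 6759 to 33925, the median width from 405 to 495 bp, the median gap from 8.94 to 37.0 kb, the variance over mean from 1.26 to 1.38, the density ratio from 1.67 to 1.94 and the fat body share from 10.5% to 49.7%. Values that compare both replicates could not be had then. A higher q limit and equal length leave fewer peaks; the cause of the other changes was not tested. No paired analysis was possible because no result comes from a test. Unknown read numbers limit how weak a peak could be found.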
